A study of Mus musculus with 3 samples.

Results

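A group of 10 mature microRNAs (miRNAs) of 6 hairpins beside and within the gene Rtl1, on mouse chromosome 12, was followed in cells labelled as fibro/adipogenic progenitors (FAPs), which are muscle-resident stromal cells able to become fibroblasts or adipocytes. They are mmu-miR-337-5p, mmu-miR-337-3p, mmu-miR-540-5p, mmu-miR-540-3p, mmu-miR-431-5p, mmu-miR-433-3p, mmu-miR-434-5p, mmu-miR-434-3p, mmu-miR-136-5p and mmu-miR-136-3p, written below without the prefix for mouse. They were taken by name, as the miRNAs of the Rtl1 antisense cluster other than miR-127, and not by a cut on their values. Earlier results of these data were known when they were chosen. All 10 had a row, out of 1097 items in the table. The wild-type mice gave 3 small RNA libraries from uncultured primary cells. The normal library came from uninjured muscle, the cardiotoxin library from muscle 5 days after injection of a snake venom toxin that makes fibres die and regenerate, and the denervated library from muscle 3 weeks after sciatic denervation, which is followed by atrophy. Age, sex, the number of animals behind a library and the way the cells were isolated could not be taken from the sources used here.

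The Dlk1-Dio3 region is imprinted. Its protein-coding genes Dlk1, Rtl1 and Dio3 are expressed from the paternal chromosome, and its non-coding RNAs, among them Meg3, Rian, Mirg and many miRNAs, from the maternal one. Rtl1, a gene derived from a retrotransposon, is transcribed from the minus strand and the antisense miRNAs from the plus strand, so that those lying within Rtl1 are fully complementary to its mRNA and can direct its cleavage. Each hairpin precursor can give a mature miRNA from its 5p arm and another from its 3p arm, and a miRNA recognises most targets through its seed, bases 2 to 8.

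The 6 hairpins span 9.60 kb at chr12:109585789-109595388 (GRCm38, plus strand). In the GENCODE M21 annotation, 4 of them, miR-431, miR-433, miR-434 and miR-136, lie inside the Rtl1 coding sequence on the minus strand (chr12:109589193-109600330). The other 2, miR-337 and miR-540, lie outside that gene, 3.31 kb and 3.05 kb beyond its 3′ end. RefSeq draws a longer Rtl1 that covers all 6. The label "Rtl1 antisense" therefore holds at the level of the coding sequence for 6 of the 10 mature miRNAs.

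The mature sequences from RefSeq (GRCm38.p6) are shown because target recognition runs mostly through the seed, which is in capitals.
miR-337-5p: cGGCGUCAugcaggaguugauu
miR-337-3p: uCAGCUCCuauaugaugccuuu
miR-540-5p: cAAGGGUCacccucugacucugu
miR-540-3p: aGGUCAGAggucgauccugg
miR-431-5p: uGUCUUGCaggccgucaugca
miR-433-3p: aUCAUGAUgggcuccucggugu
miR-434-5p: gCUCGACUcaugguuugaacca
miR-434-3p: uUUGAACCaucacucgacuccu
miR-136-5p: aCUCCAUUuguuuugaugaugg
miR-136-3p: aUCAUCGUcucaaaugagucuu

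All 10 matched RefSeq by name and the 10 seeds were all different, so the cluster shares a place in the genome but no seed. The sequence the deposited table gave was identical to RefSeq for 6 of the 10 and differed at the 3′ end alone for 3. For miR-136-3p the table's sequence started 1 base earlier, which moves the seed by 1 base.
RefSeq miR-136-3p: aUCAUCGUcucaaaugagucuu
table row of miR-136-3p: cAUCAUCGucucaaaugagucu

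Each of the 10 table sequences was found in a single mouse hairpin of RefSeq. The 6 miRNAs of miR-431, miR-433, miR-434 and miR-136 had a full complement in the Rtl1 transcript, and the 4 of miR-337 and miR-540 had none. As an example, the site of miR-434-3p occupies bases 965 to 986 of the 6358-base transcript, within the coding sequence. It is shown with the letters opposite the seed in capitals.
Rtl1 site of miR-434-3p: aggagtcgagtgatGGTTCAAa

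Levels are given as counts per 1000000 counts of the library (CPM). The total was 4471365 counts in the normal library, 3636249 in the cardiotoxin library and 7193088 in the denervated library, and each condition had 1 library. No difference below therefore has a replicate check or a p-value, and the 95% intervals in parentheses, from the exact Clopper-Pearson method, cover counting error only. In bulk RNA, fewer cells of a type and less RNA per cell cannot be told apart.

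The labelled cell type was checked against marker miRNAs, and the library labelled cardiotoxin stood apart. Cardiotoxin was at least 2-fold above normal for 8 of 8 leukocyte miRNAs, beside 32.3% of the 446 items that averaged 10 CPM or more. The summed level of the leukocyte miRNAs was 422 CPM in normal, 24009 in cardiotoxin and 762 in denervated. The normal and denervated libraries held no count of miR-223-5p or miR-511-3p. Both endothelial miR-126a arms were also higher, at a summed 5401 CPM in normal and 19251 in cardiotoxin. All 10 mesenchymal miRNAs with a row, the list taken for the labelled cell type, were at least 2-fold lower, beside 39.5% of all 446 items. The list includes miR-22-3p, which is found in many cell types. The summed level of the list was 330395 CPM in normal, 18854 in cardiotoxin and 308804 in denervated, with miR-214-5p at 0 in cardiotoxin. That sum holds miR-99a-5p and a miR-100-5p row with the same counts. Epithelial miRNAs, with 2 of 5 kept higher and 2 lower in cardiotoxin, summed to 904 CPM in normal and 290.1 in cardiotoxin, where miR-205-5p was at 0. All 4 smooth muscle and pericyte miRNAs were lower too, at a summed 45050 CPM in normal and 8402 in cardiotoxin. The muscle fibre list had 2 of 5 miRNAs 2-fold or more above normal in cardiotoxin, with a sum of 903 CPM in normal and 928 in cardiotoxin.

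Together the 10 miRNAs held 0.736% of all counts in normal (0.728 to 0.744, 32906 counts), 0.00594% in cardiotoxin (0.00517 to 0.00679, 216 counts) and 0.627% in denervated (0.621 to 0.633, 45090 counts). The cluster was thus a minor but well-measured part of the normal and denervated libraries and nearly missing from the cardiotoxin library. Its summed level was 124-fold lower in cardiotoxin than in normal (108 to 142) and 1.17-fold lower in denervated than in normal (1.16 to 1.19). The size of the cardiotoxin folds depends on scaling, which these intervals do not cover. With totals that exclude miR-21a-5p, the median log2 ratio of the 10 in cardiotoxin against normal was -5.39 in place of -6.35.

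Both arms of miR-434 and the 3p arm of miR-136 carried most of the cluster. miR-434-3p, reported in mouse muscle as a miRNA that restrains apoptosis, was at 2475 CPM in normal, 23.4 in cardiotoxin and 2160.4 in denervated. It had the highest level of the 10 in every library and made up 33.6%, 39.4% and 34.5% of the cluster's counts. miR-136-3p was at 1712 CPM in normal, 9.35 in cardiotoxin and 1322 in denervated. miR-434-5p was at 1419 CPM in normal, 7.70 in cardiotoxin and 1374 in denervated. The order of these last 2 differed between normal, where miR-136-3p was above miR-434-5p, and denervated, where it was just below. Both orders were beyond counting error.

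The middle of the range was held by miR-337-5p, miR-433-3p and miR-136-5p. miR-337-5p was at 817 CPM in normal, 8.80 in cardiotoxin and 647 in denervated. miR-433-3p, reported to promote fibrosis in rodent kidney and heart, was at 383 CPM in normal, 3.85 in cardiotoxin and 309 in denervated. miR-136-5p was at 291 CPM in normal, 1.65 in cardiotoxin and 222 in denervated. In each of these the cardiotoxin value was far below the other 2 values and the denervated value was somewhat below normal.

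The lowest levels were those of miR-431-5p and of the miR-540 arms and miR-337-3p. miR-431-5p, reported to favour myogenic differentiation in mice by lowering Pax7, was at 105 CPM in normal, 3.03 in cardiotoxin and 94.3 in denervated. miR-540-3p was at 98.4 CPM in normal, 1.65 in cardiotoxin and 74.0 in denervated. These neighbours did not differ beyond counting error in normal. miR-540-5p was at 35.1 CPM in normal, 0 in cardiotoxin and 38.1 in denervated, and miR-337-3p at 22.8, 0 and 28.1 CPM. In the cardiotoxin library a count of 0 allows up to 0.825 CPM (3 counts), and most neighbours in the order of levels could not be told apart there. These were miR-136-3p, miR-337-5p and miR-434-5p, and then miR-433-3p, miR-431-5p, miR-540-3p and miR-136-5p.

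**Figure D1:**
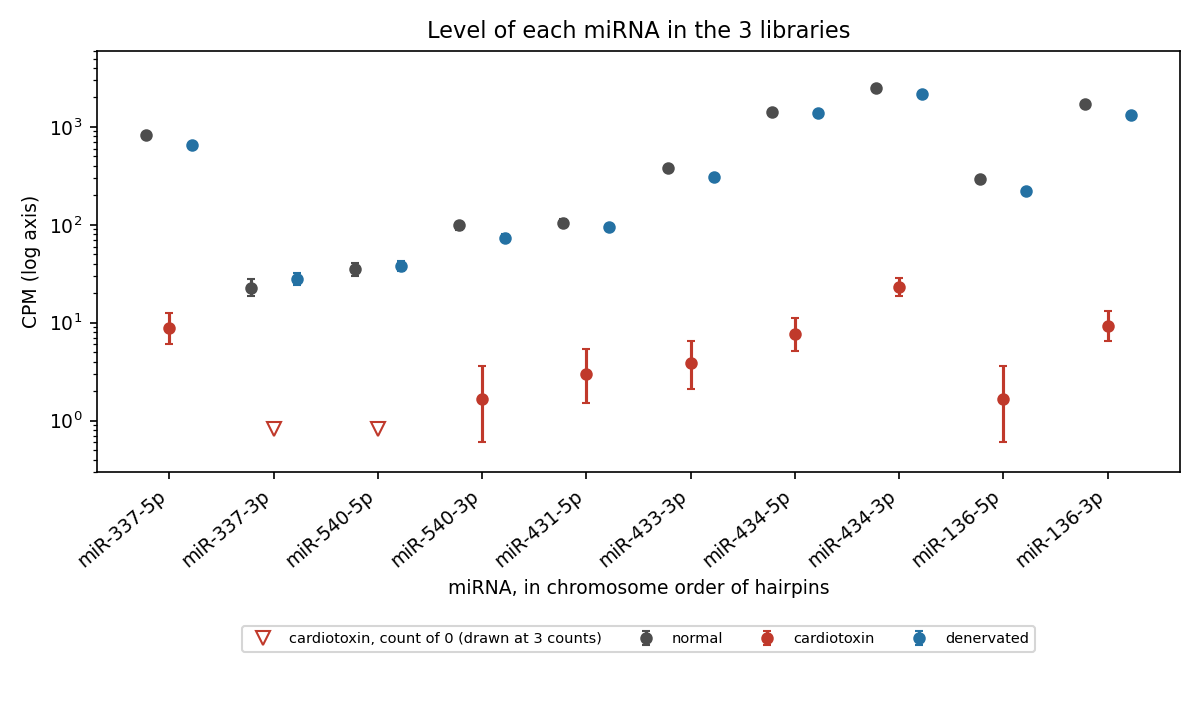
Level (CPM, log axis) of each of the 10 miRNAs, in chromosome order of their hairpins, in the normal, cardiotoxin and denervated library (1 library each); bars are 95% counting intervals and open triangles mark a count of 0, drawn at 3 counts (0.825 CPM). Normal and denervated points lie close together, from 22.8 to 2475 CPM, and every cardiotoxin point is at or below 23.4 CPM.

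Cardiotoxin was set against normal to see how these miRNAs stood in regenerating muscle. All 10 miRNAs were at least 2-fold lower in the cardiotoxin library. Of the 446 items that averaged 10 CPM or more, 39.5% were at least 2-fold lower and 32.3% at least 2-fold higher. That split depends on scaling. With totals that exclude miR-21a-5p, the most abundant miRNA of the cardiotoxin library, 30.3% were lower and 49.3% higher, and all 10 miRNAs were still lower. The median log2 ratio of the 10, taken on CPM plus a pseudocount of 1, was -6.35 (-7.05 with a pseudocount of 0.1 CPM), against -0.09 over all items. Setting counts of 0 to 3 counts could not move this median, because both miRNAs at 0 lie above it. The ratios ran from -7.37 (miR-136-3p) to -4.57 (miR-337-3p, at a count of 0, where the pseudocount sets the value), and 17.7% of all items were at or below that upper end.

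The folds of the 8 miRNAs with counts in cardiotoxin ran from 34.8 to 184. At the high end, the level of miR-434-5p in normal was 184 times that in cardiotoxin (127.4 to 278). For the arms of miR-136 the same quotient was 183 on the 3p side (131 to 265) and 176 on the 5p side (80.7 to 481, from 6 counts). These 3 could not be told apart. The 3p arm of miR-434 was 106-fold lower in cardiotoxin (85.6 to 133) and miR-433-3p 99.6-fold lower (59.2 to 182.5, from 14 counts). For miR-337-5p the difference was 92.9-fold (65.7 to 136.005). That of miR-540-3p was 59.6-fold (27.2 to 163, from 6 counts). miR-431-5p was 34.8-fold lower (19.3 to 70.2, from 11 counts).

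The intervals of most pairs overlapped. Of the 28 pairs among these 8 miRNAs, 4 did not overlap, and each of the 4 set miR-431-5p, with its smaller difference, against an arm of miR-434 or miR-136. The matching share over pairs of all 446 items was not computed. The 2 miRNAs at a count of 0 give lower bounds, at least 42.6-fold lower for miR-540-5p and at least 27.6-fold lower for miR-337-3p, counting error allowing 34.2-fold and 22.1-fold. A count of 0 in cardiotoxin was found for 2 of the 10 and for 7.85% of all 446 items. From normal to cardiotoxin the summed leukocyte markers went from 422 to 24009 CPM and the mesenchymal ones from 330395 to 18854 CPM, and their part in the difference of the 10 miRNAs was not tested.

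**Figure D2:**
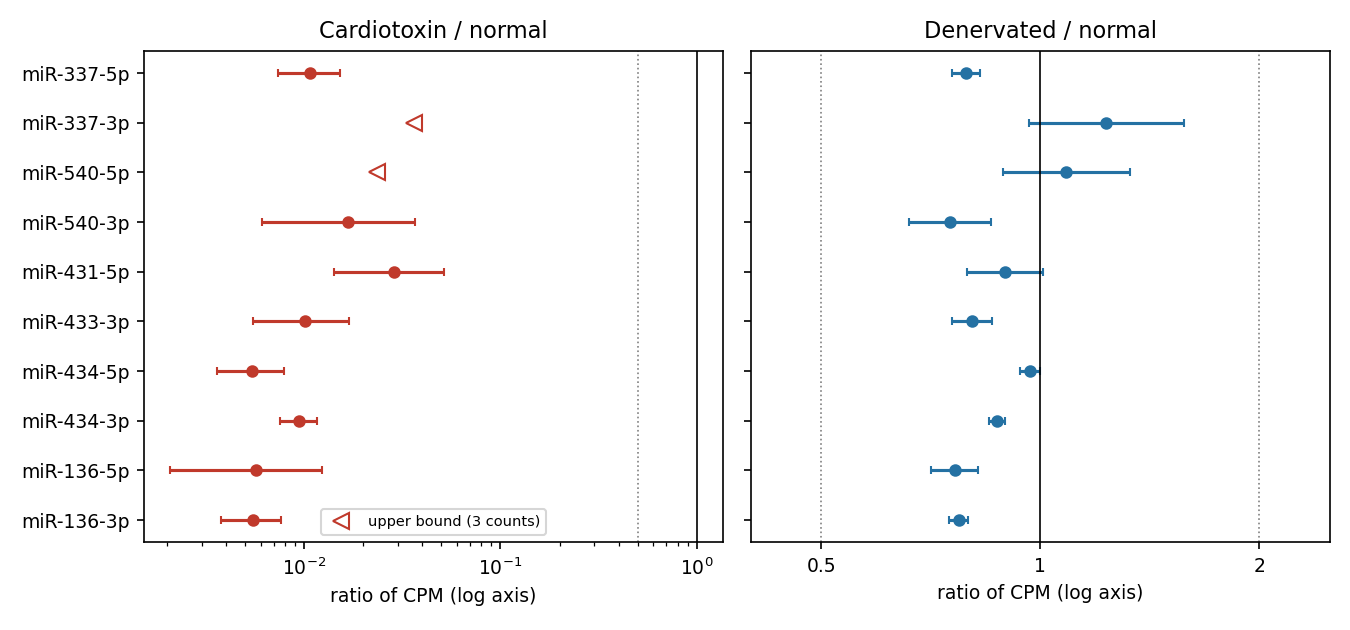
Ratio of CPM to the normal library (log axis) for each miRNA, cardiotoxin on the left and denervated on the right; points are ratios from 1 library per condition, bars 95% counting intervals, open triangles bounds with a count of 0 taken as 3 counts, the solid line equality and dotted lines 2-fold. On the left all ratios lie below 0.04, with miR-431-5p nearest to 1 among those with counts; on the right all lie within 2-fold.

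Ratios within a library do not depend on scaling between libraries. For each count of miR-199a-5p, a mesenchymal miRNA, the 10 miRNAs had 0.228 counts in normal (0.225 to 0.230), 0.304 in cardiotoxin (0.260 to 0.355) and 0.136 in denervated (0.135 to 0.137). Set against miR-199a-5p, the cluster was therefore somewhat above normal in cardiotoxin and below it in denervated. For each count of miR-214-3p, also of the mesenchymal list, the values were 2.61 in normal (2.56 to 2.67), 1.89 in cardiotoxin (1.503 to 2.40) and 1.39 in denervated (1.37 to 1.41). Against miR-22-3p, a mesenchymal list member found in many cell types, they were 0.261 in normal (0.258 to 0.264), 0.00525 in cardiotoxin (0.00457 to 0.00600) and 0.297 in denervated (0.2937 to 0.29996). Against miR-10b-5p they were 0.687 in normal (0.677 to 0.696), 0.0170 in cardiotoxin (0.0148 to 0.0194) and 1.13 in denervated (1.11 to 1.14). Against all 10 mesenchymal miRNAs together, the 10 had 2.23% of their counts in normal (2.20 to 2.25), 0.315% in cardiotoxin (0.274 to 0.360) and 2.03% in denervated (2.01 to 2.05). In cardiotoxin the cluster was thus within 2-fold of its normal ratio to miR-199a-5p and miR-214-3p. It was far below its normal ratio to miR-22-3p, miR-10b-5p and the whole list. The whole list does not stand apart from miR-22-3p and miR-10b-5p here. They held 11317 and 3498 of its 18854 CPM in cardiotoxin, but 28212 and 10719 of its 330395 CPM in normal. The members not taken singly above stood on both sides of the cluster, which was 124-fold lower in cardiotoxin than in normal. Further below normal were miR-199b-5p (526-fold), miR-199b-3p (184-fold) and miR-214-5p (at least 481.7-fold, counting error allowing 391-fold). Nearer to normal were miR-125b-5p (87.4-fold lower) and miR-99a-5p and miR-100-5p (49.0-fold lower). The ratio of the cluster to a mesenchymal miRNA thus depended on the member chosen.

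Denervated was set against normal to see how these miRNAs stood in muscle without its nerve. All 10 miRNAs lay within 2-fold of normal, as did 87.4% of all 446 items, with 6.28% at least 2-fold lower and 6.28% at least 2-fold higher. The median log2 ratio of the 10 was -0.25, against -0.09 over all items. The ratio was below 0 for 8 of the 10, beside 56.5% of all 446 items, and for 7 of the 10 with TMM factors, DESeq2 size factors, the authors' signal and the totals without miR-21a-5p or the 5 most abundant rows, miR-434-5p being the one that crossed 0.

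Among the abundant ones, miR-136-3p was 1.29-fold lower in denervated (1.26 to 1.33). Next to it, miR-337-5p was 1.26-fold lower (1.21 to 1.32), and the 3p arm of miR-434 was 1.15-fold lower (1.12 to 1.17). Among the rarer ones, the difference was 1.33-fold for miR-540-3p (1.17 to 1.51), 1.31-fold for miR-136-5p (1.22 to 1.41) and 1.24-fold for miR-433-3p (1.16 to 1.32), all lower in denervated. miR-434-5p was at 0.968 of its normal level (0.938 to 0.9997). The intervals of miR-431-5p (0.794 to 1.01), miR-540-5p (0.888 to 1.33) and miR-337-3p (0.966 to 1.58), given as denervated over normal, held 1. Of the 45 pairs of intervals, 20 did not overlap, among them those of the 2 arms of miR-337, of miR-540 and of miR-434. The matching share over pairs of all 446 items was not computed, so 20 of 45 cannot be called high or low. The interval lay below 1 for 7 of the 10. Among all 446 items it lay below 1 for 43.0% and excluded 1 on either side for 70.2%. The 7 include miR-434-5p, whose ratio turns above 1 with the scalings named above, and whether these differences exceed the spread between animals cannot be told from 1 library per condition. In this library muscle fibre miRNAs stood at least 2-fold higher in 5 of 5 cases, at a summed 903 CPM in normal and 3159 in denervated, and both endothelial arms at least 2-fold lower, at a summed 5401 and 1659 CPM. Of the leukocyte miRNAs 4 of 8 were higher, and of the 5 epithelial ones 4 were lower. All 10 mesenchymal miRNAs and all 4 of smooth muscle and pericytes lay within 2-fold. Their part in these small differences was not tested.

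**Figure D3:**
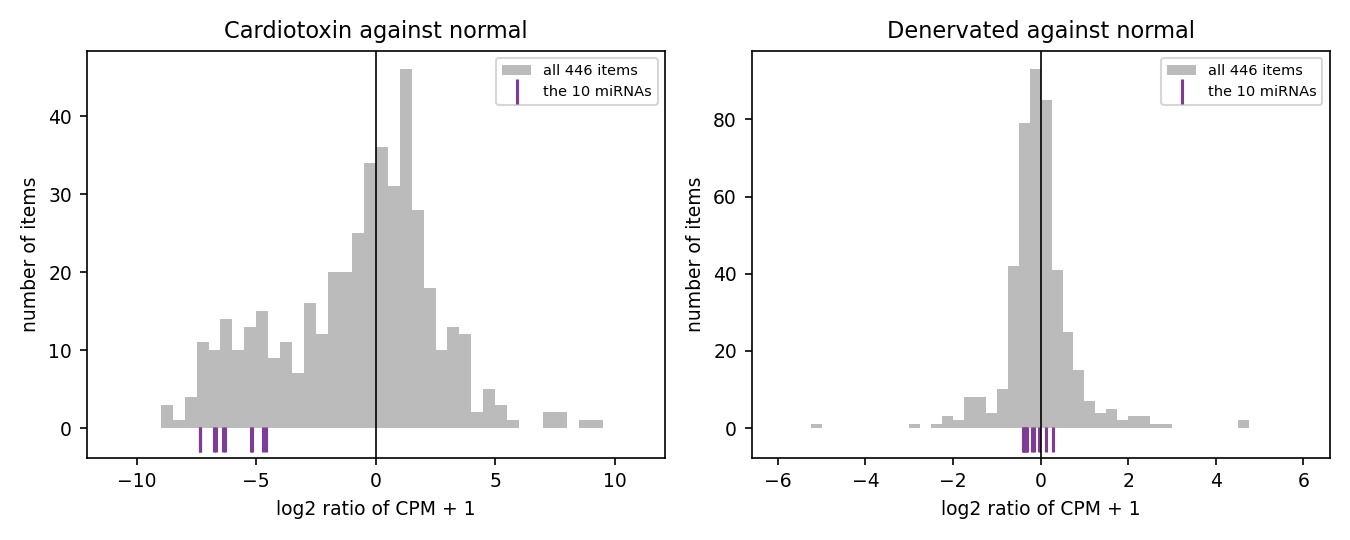
Number of items (vertical axis) by log2 ratio of CPM + 1 (horizontal axis) for the 446 items that averaged 10 CPM or more, with the 10 miRNAs as purple ticks, for cardiotoxin (left) and denervated (right) against normal. The ticks run from -7.37 to -4.57 on the left, in the lower tail, and from -0.41 to 0.29 on the right, in the middle of all items.

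Cardiotoxin was also set against denervated, which shares its cardiotoxin library with the first comparison. All 10 miRNAs were at least 2-fold lower in cardiotoxin, with 38.6% of all 446 items at least 2-fold lower and 33.6% at least 2-fold higher (30.3% and 47.5% with totals that exclude miR-21a-5p). The median log2 ratio of the 10 was -6.02. The difference was 178-fold for miR-434-5p (123 to 269) and 141-fold for miR-136-3p (101 to 204). It was 92.4-fold for miR-434-3p (74.7 to 116) and 31.2-fold for miR-431-5p (17.3 to 62.7), so miR-431-5p again differed least among those with counts.

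The shares of the 2 arms of a hairpin add a measure that no scaling between libraries can move. The precursors of the 4 hairpins with both arms among the 10 are shown, with the mature arms in capitals, the 5p arm first.
miR-337: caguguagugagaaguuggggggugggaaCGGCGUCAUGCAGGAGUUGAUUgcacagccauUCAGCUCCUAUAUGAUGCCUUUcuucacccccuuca
miR-540: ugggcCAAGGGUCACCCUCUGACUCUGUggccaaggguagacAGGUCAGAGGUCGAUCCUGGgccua
miR-434: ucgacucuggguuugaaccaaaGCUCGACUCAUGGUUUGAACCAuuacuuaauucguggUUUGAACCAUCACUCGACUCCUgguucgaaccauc
miR-136: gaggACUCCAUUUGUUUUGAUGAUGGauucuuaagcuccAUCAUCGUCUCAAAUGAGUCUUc

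The favoured arm was the same in all 3 libraries for each of these hairpins. The 5p arm held 97.3% of the counts of miR-337 in normal (96.7 to 97.8), all 32 in cardiotoxin (89.1% or more) and 95.8% in denervated (95.2 to 96.4). It held 26.3% of those of miR-540 in normal (22.8 to 30.0), 0 of 6 in cardiotoxin (up to 45.9%) and 34.0% in denervated (30.7 to 37.4). For miR-434 the share was 36.4% in normal (35.7 to 37.2), 24.8% in cardiotoxin (17.1 to 33.8, of 113 counts) and 38.9% in denervated (38.3 to 39.5). For miR-136 it was 14.5% in normal (13.8 to 15.3), 15.0% in cardiotoxin (5.71 to 29.8, of 40 counts) and 14.4% in denervated (13.7 to 15.0).

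For miR-136 the 3 shares were the same within counting error. For miR-337, miR-540 and miR-434 the less abundant arm had a larger share in denervated than in normal, with intervals that did not overlap. The same held for miR-127, not among the 10, with a 5p share of 2.89% in normal (2.78 to 3.00) and 4.06% in denervated (3.94 to 4.19). How often other hairpins did so was not counted, so this is not shown to be a trait of the cluster. For miR-434 the 5p share in cardiotoxin was below both other shares. In miR-431 and miR-433, whose other arms are not among the 10, the 5p arm held 87.9% and 5.56% in normal and 87.1% and 4.64% in denervated, with overlapping intervals. In cardiotoxin all 11 counts of miR-431 were on the 5p arm and all 14 of miR-433 on the 3p arm.

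**Figure D4:**
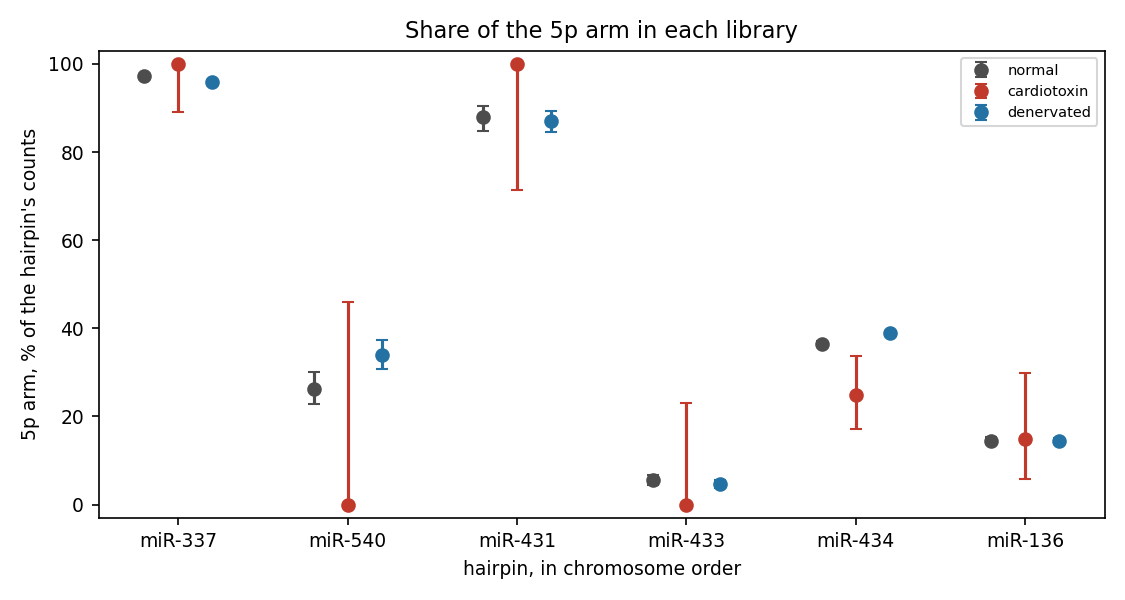
Share of a hairpin's counts on its 5p arm (percent) in each library, with 95% Clopper-Pearson intervals, for the 6 hairpins in chromosome order. Each hairpin keeps its favoured arm in all 3 libraries, and the cardiotoxin intervals are wide because they rest on 6 to 113 counts.

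The sum of both arms was also followed along the 9.60 kb. In cardiotoxin the summed arms were 95.5-fold lower than normal for miR-337 (67.5 to 140), 80.9-fold for miR-540 (37.0 to 221), 39.6-fold for miR-431 (22.0 to 79.9), 105-fold for miR-433 (62.7 to 193), 125-fold for miR-434 (104 to 152) and 182-fold for miR-136 (133.6 to 255). In denervated the summed arms were between 1.10-fold (miR-434) and 1.30-fold (miR-136) lower, and for miR-431 the interval of that fold held 1 (0.991 to 1.24). In cardiotoxin the interval of miR-431 lay below those of miR-434 and miR-136, and those of miR-337, miR-540 and miR-433 overlapped that of miR-434.

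Of the other miRNAs of this stretch, 5 had rows. miR-127-3p, whose hairpin lies between miR-433 and miR-434, had 18290 CPM in the normal library, 116 in cardiotoxin and 13016 in denervated, more than the 10 together in each library. For each of its counts the 10 had 0.402 counts in normal (0.397 to 0.408), 0.514 in cardiotoxin (0.434 to 0.607) and 0.482 in denervated (0.476 to 0.487), so the cluster stood slightly higher beside miR-127-3p in both injured libraries. Its partner on the 5p arm had 544.1 CPM in normal, 1.38 in cardiotoxin and 551 in denervated. miR-665-3p was at 64.0, 0 and 67.8 CPM, miR-433-5p at 22.6, 0 and 15.0 CPM, and miR-431-3p at 14.5, 0 and 13.9 CPM, in the same order of libraries.

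The rest of the region was compared by position. Counted here were the 55 miRNAs averaging 10 CPM or more whose hairpins RefSeq places within 400 kb downstream of the start of Meg3. All 55 were at least 2-fold lower in cardiotoxin than in normal, beside 39.5% of all 446 items. All 55 were within 2-fold in denervated, beside 87.4% of all items. The 45 that are not among the 10 had a median log2 ratio of -5.93 in cardiotoxin and 0.02 in denervated, beside -6.35 and -0.25 for the 10. Many of the 45, such as miR-485-5p and miR-382-3p, had a count of 0 in cardiotoxin, as had 2 of the 10. There the pseudocount sets the ratio, so the cardiotoxin medians of -5.93 and -6.35 are not read as different. In the list of the Mirg cluster, at the far end, 21 of 37 kept miRNAs were above 0 in denervated (median 0.03), as were 42.4% of all 446 items, with miR-379-5p at 3596 CPM in normal and 4055 in denervated, miR-541-5p at 2583 and 2588 and miR-411-5p at 2175 and 2276. On the Meg3 side and in Rian, the 2 kept miRNAs, miR-370-3p and miR-673-5p, had a median of -0.45. The 400 kb window ends before Dio3, beside which miR-1247-5p lies. The log2 ratios of miR-1247-5p to normal were -8.25 in cardiotoxin and 1.69 in denervated, so it was not within 2-fold in denervated.

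**Figure D5:**
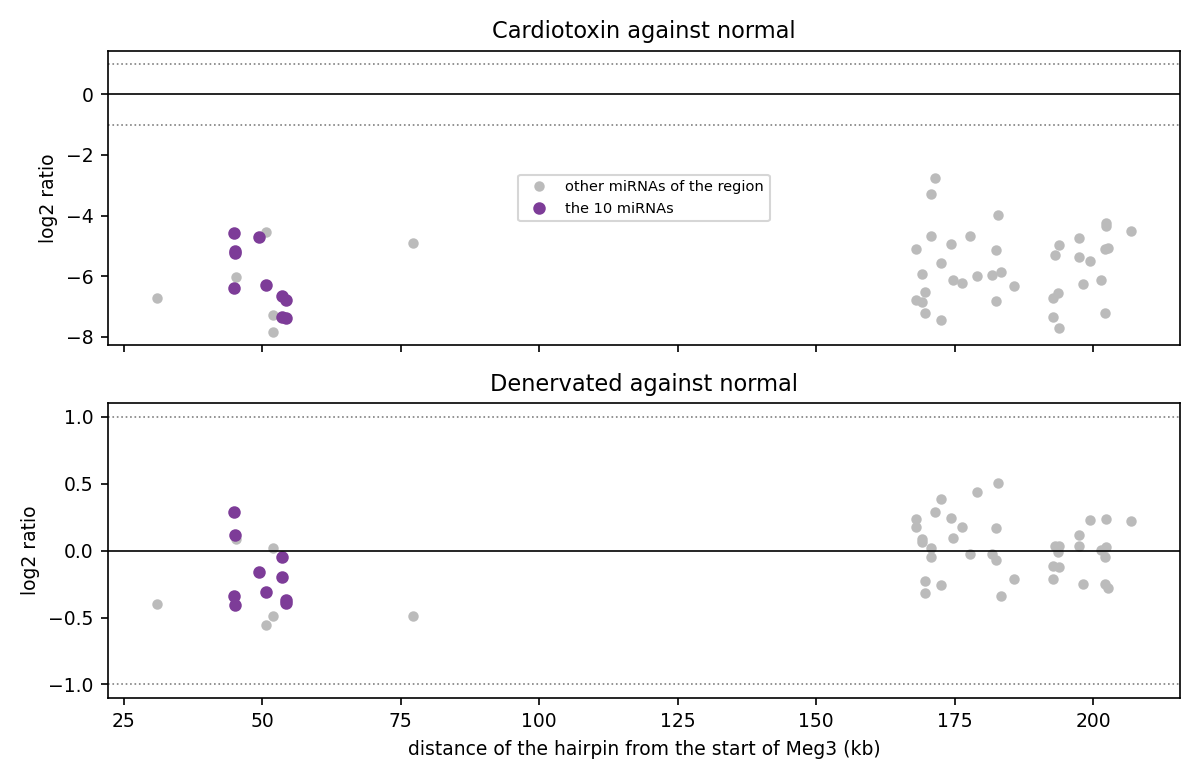
Log2 ratio of CPM + 1 against normal (vertical axis) by distance of the hairpin from the start of Meg3 in kb (horizontal axis). The 55 miRNAs within 400 kb downstream of that start are shown, the 10 in purple and others in grey. Dotted lines mark 2-fold. In cardiotoxin (top) every point is below the 2-fold line; in denervated (bottom) every point is between the lines, with 8 of the 10 below 0, beside 56.5% of all 446 items.

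The miRNAs most alike were sought over the 3 libraries, as the smallest Euclidean distance, in log2 units, between a miRNA's pair of ratios to normal and the median pair of the 10, among 196 other mature miRNAs averaging 100 CPM or more. The 6 nearest were miR-381-3p (0.042), miR-455-3p (0.113), miR-615-3p (0.179), miR-125b-1-3p (0.187), miR-299b-5p (0.202) and miR-125b-5p (0.211). miR-381 and miR-299b lie in the same imprinted region, and the hairpins of the other 4 are not part of it. miR-455-3p, for example, was at 2684 CPM in normal, 34.1 in cardiotoxin and 2363 in denervated.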

How the data were processed

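Total RNA of uncultured FAPs was made into TruSeq small RNA libraries, per the labels' protocols, with 1 library per condition. The deposited table holds for each miRNA row an estimated count, marked raw per the file headers, and the authors' normalized signal, which is that count times 1 factor per library. The submitters' processing notes name StringTie; no aligner, miRBase release or genome build is given in the sources used here. All 30 values of the 10 miRNAs were whole numbers (tolerance 1e-06). Rows of the same mature mouse name were summed (1108 rows gave 1097 items), counts were divided by column totals, and items averaging 10 CPM or more were kept (446). Each of the 10 had 1 row and passed. An item was called at 2-fold on log2(CPM + 1). Ratio intervals come from the exact conditional binomial method on counts rounded to whole numbers (scipy 1.17.1), tested on simulated data. TMM factors (edgeR 4.0.16) and DESeq2 1.42.0 size factors were alternatives. Positions and sequences are from RefSeq and GENCODE M21 (GRCm38), and 2 arms of the region with no mature entry were placed by their hairpin's. The table has 3 blank lines, whose content is not analysed here. The times of 5 days and 3 weeks come from a title and the column headers, and the column headed Control was taken as the normal library, the only uninjured one. The 10 miRNAs and the lists were chosen with earlier results of these data known; all 10 were named, with other miRNAs by mean level or likeness.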

Additional observations from a re-analysis of the deposited data

How the results depend on the processing

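In each of 11 alternatives, all miRNAs of the 10 that entered stayed at least 2-fold lower in cardiotoxin than in either other library and within 2-fold in denervated against normal. With only miRNAs averaging 100 CPM or more, 6 entered, and the counts in the 3 comparisons were 6, 6 and 6. The median log2 ratio of cardiotoxin against normal (-6.35) was -5.39 without miR-21a-5p in the totals and -5.76 without the 5 most abundant rows of any library. It was -5.47 with a pseudocount of 5 CPM and -7.05 with one of 0.1 CPM. The median against denervated (-6.02) was -5.33 without miR-21a-5p, -5.12 with a pseudocount of 5 CPM and -6.76 with one of 0.1 CPM. The median of all items in cardiotoxin against normal shifted by 1.06 without miR-21a-5p in the totals, by 0.79 without the 5 most abundant rows, by -0.28 with TMM factors, by -0.28 with the authors' signal and by -0.17 with DESeq2 size factors. The median in denervated against normal (-0.25) was -0.15 with TMM factors, -0.13 with DESeq2 size factors, -0.14 with the authors' signal and -0.13 without miR-21a-5p, with shifts of all items of 0.09 to 0.11. The share of library counts held by the 10 was 0.752%, 0.0129% and 0.699% (normal, cardiotoxin, denervated) without miR-21a-5p, 1.16%, 0.0163% and 1.03% without the 5 most abundant rows, and 0.633% in denervated over mature mouse rows. Of 318 single ratios, 246 stayed within their counting interval and 72 left it, none turning a 2-fold difference. No paired analysis was possible because each condition has 1 library, and for the same reason no library could be left out. Depth limits the cardiotoxin values, which rest on 0 to 85 counts per miRNA.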

Other observations

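Other rows of the table also had a 5′ end that differed from RefSeq, as the miR-136-3p row did. Of 461 mature mouse rows whose sequence was found in the hairpin of the same name, 54 (11.7%) started at another base than the RefSeq mature sequence. In the stretch opposite Rtl1 the miR-127-5p row started 2 bases later than RefSeq. The table gives 1 sequence per row, so the share of reads with each 5′ end within a row is unknown.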
